A study of Homo sapiens with 5 samples.

Results

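The 9 genes described here encode cell-adhesion proteins of the synapse and of growing neurites: the neuroligins NLGN1, NLGN2 and NLGN3, the neurexins NRXN2 and NRXN3, the leucine-rich repeat protein LRRTM2, and the leucine-rich repeat and immunoglobulin proteins AMIGO1, AMIGO2 and AMIGO3. They are 9 of 18417 genes that had a row of their own on the array, and each had 1 row. They were brought together by family around NLGN1, whose signal was already known to be lower in the silenced cells, so the differences of all 9 are descriptions and carry no test. The cells were D54, an established human glioma line. In 3 samples, TIP-1 had been silenced with shRNAs of 3 different sequences, 1 array each. The other 2 samples carried a control shRNA and were independent clones. No technical replicates were made, and no sample without shRNA was analysed here.

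Neuroligins sit in the receiving membrane of a synapse and bind neurexins across the cleft. Their cytoplasmic tails end in short motifs that PDZ domain scaffolds hold, and splicing and competing ligands decide which pairs form. LRRTM2 is another partner of neurexins, and the AMIGO proteins bind each other between neurites and support axon bundling and cell survival. Outside neurons, NLGN3 that is shed from cells is known as a growth signal for glioma. TIP-1 is itself little more than a PDZ domain. Its binding to any of these proteins was not measured.

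The sequences just before the annotated starts are shown for the 2 genes that differed most, NLGN1 and AMIGO2, and for NLGN3, a close relative of NLGN1 that differed little. Each is the 250 bases upstream of a RefSeq start, read in the direction of transcription on GRCh38.p14. Capitals mark the GC box, GGGCGG on either strand. NLGN1 has 2 annotated starts in the table, at chr3:173395702-173395951 and chr3:173397494-173397743 on the plus strand. NLGN3 is at chrX:71144591-71144840 on the plus strand, and the first of 2 overlapping AMIGO2 windows is at chr12:47079952-47080201 on the minus strand.
NLGN1 first start: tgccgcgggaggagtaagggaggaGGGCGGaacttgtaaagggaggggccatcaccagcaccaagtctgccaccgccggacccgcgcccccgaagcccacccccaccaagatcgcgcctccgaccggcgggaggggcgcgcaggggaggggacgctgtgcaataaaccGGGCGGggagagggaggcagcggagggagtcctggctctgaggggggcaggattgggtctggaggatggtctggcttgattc
NLGN1 second start: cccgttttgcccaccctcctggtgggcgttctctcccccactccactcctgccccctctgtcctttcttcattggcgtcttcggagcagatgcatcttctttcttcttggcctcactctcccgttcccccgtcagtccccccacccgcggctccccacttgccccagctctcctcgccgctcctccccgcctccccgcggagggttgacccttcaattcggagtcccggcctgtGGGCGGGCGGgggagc
NLGN3: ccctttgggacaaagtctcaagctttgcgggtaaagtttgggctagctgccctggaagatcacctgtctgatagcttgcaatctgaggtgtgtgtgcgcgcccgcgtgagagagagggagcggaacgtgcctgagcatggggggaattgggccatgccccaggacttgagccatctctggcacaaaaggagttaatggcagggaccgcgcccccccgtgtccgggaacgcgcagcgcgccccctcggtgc
AMIGO2: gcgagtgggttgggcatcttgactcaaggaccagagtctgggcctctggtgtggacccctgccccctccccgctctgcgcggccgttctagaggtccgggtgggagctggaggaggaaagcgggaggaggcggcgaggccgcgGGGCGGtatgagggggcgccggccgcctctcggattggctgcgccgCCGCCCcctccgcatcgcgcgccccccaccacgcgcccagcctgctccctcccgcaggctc

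Both NLGN1 windows held 2 GC boxes, which overlap each other at the second start, and so did the AMIGO2 window. The NLGN3 window held 0. AMIGO1 and AMIGO3 also held 2 each. Of the 3 NRXN3 windows, 1 held 3, another held 1 and the last held 0. NLGN2 and LRRTM2 held 0. Whether the boxes bear on the differences was not tested. Of all 35116 such windows, 42.6% held at least 1. NLGN1 was rich in G and C at both starts (69.2% and 67.2%, with 19 and 17 CpG pairs), as was AMIGO2 (74.4%, 26 pairs). NLGN3 had 62.0% and 16 pairs. Windows of the genes not shown ranged from 43.6% (LRRTM2) to 70.8% (AMIGO1), and from 2 pairs (NLGN2) to 37 (AMIGO1). The median window had 58% and 11 pairs. None of the 4 windows shown held TATAAA (10.7% of all windows), CACGTG (6.34%), TGACGTCA (1.65%), CTTTGAT (2.26%) or CTTTGTT (4.50%), on either strand. Among the other genes, LRRTM2 held 1 TATAAA and 1 TGACGTCA, the cyclic AMP response element, and AMIGO1 held 1 CACGTG, the E-box. In all, 12 windows matched 8 of the 9 genes. NRXN2 had none in the table. A match or its lack describes these letters only.

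The silenced gene was read first. TAX1BP3, which encodes TIP-1, had log2 signals of 9.81, 9.61 and 9.55 in TIP-1 shRNAs 1, 2 and 3, against 12.05 and 12.10 in controls 1 and 2. It fell by 2.42 on the log2 scale (SE 0.105, limma adjusted p = 0.011), in all 3 arrays. The same row is annotated to a read-through transcript too. It was the only one of 33297 rows to pass the test (0.003% of rows, adjusted p under 0.05), and it no longer passed when control 1, control 2 or shRNA 2 was omitted (limma adjusted p 0.386, 0.387 and 0.129). The arrays had medians from 7.88 to 7.98. The SD of the differences between shRNA 1 and shRNA 2 over all rows was 0.191 log2 units, but shRNA 3 stood apart from both, at 0.305 and 0.292, and the 2 controls were 0.252 apart. The differences of the 9 genes are therefore also given without shRNA 3, as are those of other synaptic adhesion and marker genes given a difference that it moved by over 1.5 times.

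NLGN1 was lower with every TIP-1 shRNA. Its log2 signal was 6.21, 6.57 and 6.19 with shRNAs 1, 2 and 3, against 7.24 and 7.75 in controls 1 and 2. All 3 silenced arrays lay below both controls, with a gap of 0.66 log2 units between the nearest values. The means were 6.33 ± 0.21 (SD, n = 3) with TIP-1 shRNA and 7.49 ± 0.36 (SD, n = 2) with control shRNA, a log2 difference of -1.17 (SE 0.19, 95% interval -1.63 to -0.70), or 2.24-fold lower. Only 16 of 33297 rows had a lower difference, which is how the gene came to be chosen. The controls themselves were 0.51 apart, a gap reached by 4.65% of all rows, where the median gap was 0.12. The difference was -0.91 without control 2 and -1.42 without control 1. It was -1.10 without shRNA 3. In RNA from whole cultures, fewer expressing cells and less RNA per cell cannot be told apart. NLGN1 read below the array medians (7.88 to 7.98) in every array, controls included. The table has no detection call, so how near the silenced arrays came to background is not known.

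**Figure D1:**
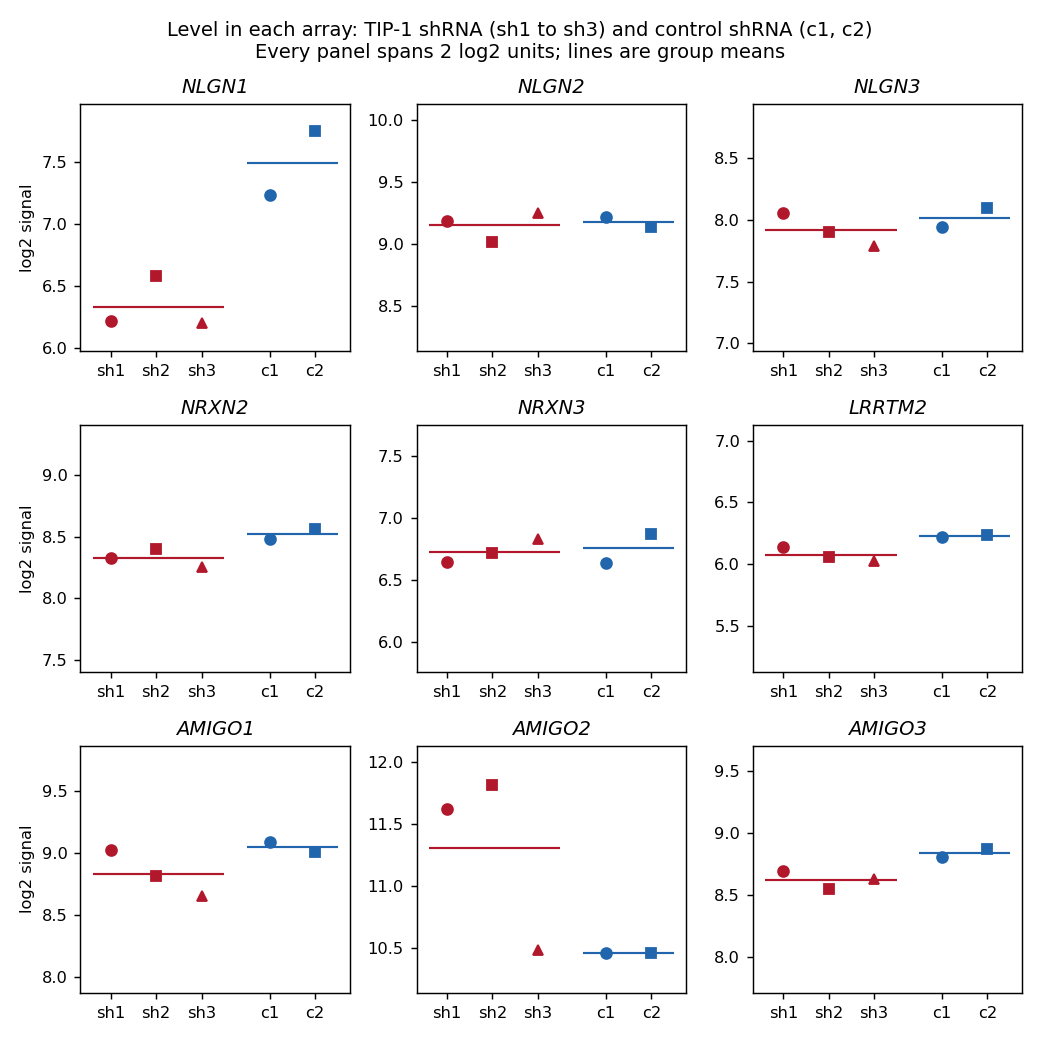
Log2 signal of each of the 9 genes in each array, 1 panel per gene, with TIP-1 shRNAs 1 to 3 (red) left of controls 1 and 2 (blue); lines are group means and every panel spans 2 log2 units. NLGN1 was lower in all 3 silenced arrays (6.19 to 6.57) than in the controls (7.24 and 7.75), and AMIGO2 was high in shRNAs 1 and 2 only (11.62 and 11.81).

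The differences of the other neuroligins were nearer 0. NLGN2, the neuroligin of inhibitory synapses, read 9.19, 9.02 and 9.26 with TIP-1 shRNA, against 9.22 and 9.14 with control shRNA. The groups overlapped, and the difference was -0.03 (95% interval -0.27 to 0.22), turning to 0.04 with median centring of the arrays. NLGN3, found at excitatory and inhibitory synapses, read 8.06, 7.90 and 7.79 with TIP-1 shRNA, against 7.94 and 8.09 with control shRNA. Its groups overlapped too, with a difference of -0.10 (95% interval -0.37 to 0.17). Another neuroligin, NLGN4X, came from the wider list described further on. It read 6.60, 6.77 and 6.59 with TIP-1 shRNA, against 6.73 and 6.83 with control shRNA, a difference of -0.13 (95% interval -0.36 to 0.11) with overlapping groups.

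The neurexins, the presynaptic partners, were close to their controls. NRXN2 read 8.33, 8.40 and 8.25 with TIP-1 shRNA, against 8.48 and 8.56 with control shRNA. All silenced arrays were below both controls, but by a gap of only 0.08, about the distance between the controls themselves (0.08), and the difference was -0.19 (95% interval -0.41 to 0.02). NRXN3 read 6.64, 6.72 and 6.83 with TIP-1 shRNA, against 6.64 and 6.88 with control shRNA. These values overlapped, and the difference of -0.03 (95% interval -0.29 to 0.24) changed sign with quantile normalization (0.04) and median centring (0.03). LRRTM2, the postsynaptic neurexin ligand, read 6.14, 6.06 and 6.03 with TIP-1 shRNA, against 6.22 and 6.23 with control shRNA. The silenced arrays were all lower, by 0.15 on average (95% interval of the difference -0.35 to 0.05). In the gene table used, LRRTM2 overlaps CTNNA1, the gene of the adherens junction protein alpha-catenin, which differed by -0.01 (SE 0.12).

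The AMIGO genes differed from one another in direction. AMIGO2 read 11.62 and 11.81 with shRNAs 1 and 2 but 10.48 with shRNA 3, against 10.45 and 10.46 in controls 1 and 2. The shRNA 3 array was thus level with the controls, 0.03 above the nearer one, and this small gap closed under quantile normalization. The mean difference was 0.85 (SE 0.38, 95% interval -0.08 to 1.78), or 1.80-fold higher. It was 1.26 without shRNA 3, 0.60 without shRNA 2 and 0.69 without shRNA 1. PCED1B, which overlaps AMIGO2 in the gene table, differed by 0.18 (SE 0.09). AMIGO1, which also associates with the potassium channel Kv2.1, read 9.02, 8.82 and 8.65 with TIP-1 shRNA, against 9.09 and 9.01 with control shRNA. Its groups overlapped at shRNA 1, and the difference was -0.22 (95% interval -0.52 to 0.09), or -0.13 without shRNA 3. AMIGO3 read 8.69, 8.55 and 8.63 with TIP-1 shRNA, against 8.81 and 8.87 with control shRNA. It was lower in all 3 silenced arrays by 0.21 on average (95% interval of the difference -0.43 to -0.00). RNF123, which overlaps AMIGO3 in that table, differed by 0.08 (SE 0.13).

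Set side by side, no other gene of the 9 lay as far below its controls as NLGN1. In shRNA 1 it lay 1.23 log2 units below the median of the other 8 after each was set to its control mean. In shRNA 2 that distance was 0.78, and in shRNA 3 it was 1.09. The NLGN1 values behind these were -1.28, -0.92 and -1.30, and the medians were -0.06, -0.14 and -0.20. Without shRNA 3 the differences were -0.08 for NLGN2, -0.04 for NLGN3, -0.16 for NRXN2, -0.08 for NRXN3, -0.13 for LRRTM2 and -0.22 for AMIGO3. NLGN1 was the 1 gene of the 9 with a mean difference of -1 or lower (0.0751% of all rows), and 0 reached 1 or higher (0.0901%). It was not alone in direction: 8 of the 9 means were lower with TIP-1 shRNA and 1 was higher, although the signs of NLGN2 and NRXN3 depended on the scaling. The groups did not overlap for 4 lower genes (NLGN1, NRXN2, LRRTM2 and AMIGO3) and for 1 higher gene (AMIGO2), while 14.5% of all rows lay wholly below and 11.6% wholly above. The median difference was -0.15 over the 9 genes and -0.13 without NLGN1, beside -0.01 over all rows. None of the 9 passed limma over all rows, in the fit as deposited or in any of 12 alternatives that tested them (3 of the 9 were too dim for the fit of bright rows). Those 3 dim genes were NLGN1, NRXN3 and LRRTM2. At an unadjusted p under 0.05 there were 2 lower (NLGN1 and AMIGO3) and 0 higher, where 3.95% and 3% of all rows were. Because the genes were chosen from this comparison, nothing is read from these counts.

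**Figure D2:**
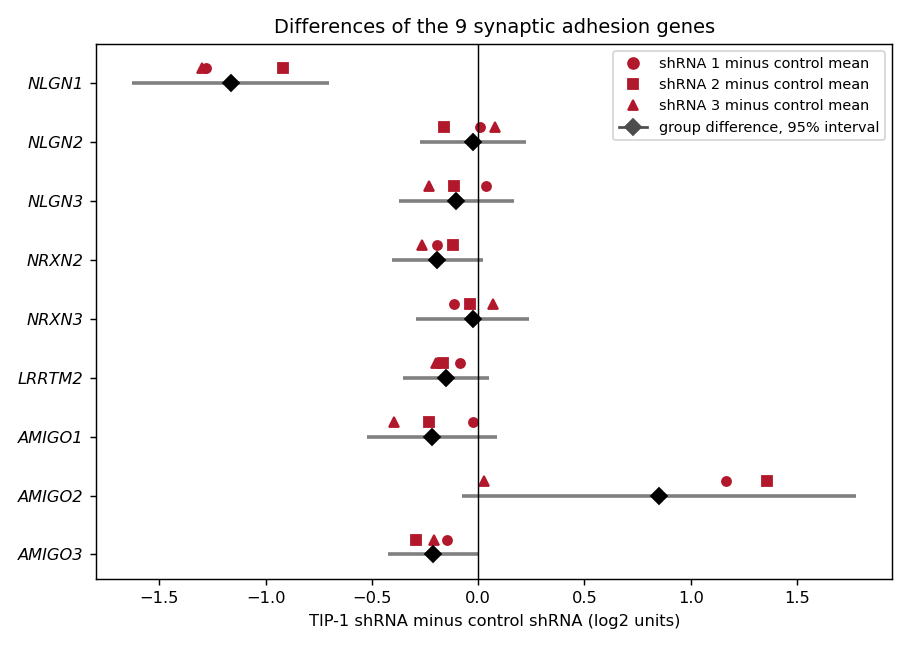
Log2 difference of TIP-1 shRNA from control shRNA for the 9 genes. Diamonds and grey bars are the group difference with limma's 95% interval, and red symbols are each shRNA array minus the control mean. NLGN1 lay at -1.17 with all 3 arrays on the same side, AMIGO2 at 0.85 with shRNA 3 near 0, and the other 7 between -0.22 and -0.03.

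A wider list of synaptic adhesion genes and their cytoplasmic partners was drawn up by function to see whether NLGN1 had company. Of 76 listed genes, 68 had a row of their own. None passed limma over all rows in either direction, as deposited or in the same 12 alternatives where tested (0.003% of all rows passed). At an unadjusted p under 0.05, 2 of the 68 were lower and 0 higher, where 3.95% and 3% of all rows were. The median difference was -0.04, beside -0.01 over all rows, and it changed sign with quantile normalization (0.02) and median centring (0.02). The silenced arrays lay wholly below the controls for 7 of 68 genes and wholly above for 6, where 14.5% and 11.6% of all rows did.

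The 2 genes under that unadjusted threshold were IL1RAPL1 and LRFN1. IL1RAPL1, a postsynaptic receptor that binds the phosphatase PTPRD, read 8.66, 8.27 and 8.52 with TIP-1 shRNA, against 9.13 and 9.24 with control shRNA. It was lower in every silenced array, with a difference of -0.70 (SE 0.13, 95% interval -1.02 to -0.38, limma adjusted p = 0.707), the lowest of the 68. Its relative IL1RAP, the accessory chain of the interleukin-1 receptor, differed by 0.16 (SE 0.11). LRFN1, a leucine-rich repeat protein that gathers postsynaptic scaffolds, differed by -0.21 (SE 0.08), and LRRC4, a ligand of netrin-G, by -0.24 (SE 0.10).

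In the adhesion groups that remain, the named genes differed by between -0.25 and 0.89. Among cerebellins and delta glutamate receptors, which bridge neurexins to the postsynaptic side, CBLN1 differed by 0.14 (SE 0.11) and GRID1 by -0.04 (SE 0.09). The homophilic adhesion protein CADM1 differed by 0.10 (SE 0.08) and the nectin NECTIN3 by -0.11 (SE 0.10). MDGA1, which covers neuroligins and blocks their access to neurexins, read 9.55, 9.36 and 10.14 with TIP-1 shRNA, against 9.40 and 8.18 with control shRNA. These groups overlapped because the controls were far apart, so the difference of 0.89 (SE 0.39) was no larger than the distance between them. CLSTN1, a calsyntenin, differed by 0.13 (SE 0.08). The latrophilin ADGRL3 differed by 0.65 (SE 0.40), but by 1.04 without shRNA 3, which lay below both controls. TENM3, of the teneurin family that binds latrophilins, differed by -0.25 (SE 0.13). Without shRNA 3, CBLN1 came to 0.23, GRID1 to -0.00 and NECTIN3 to -0.05.

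Inside the cell, GPHN, which encodes the inhibitory synapse scaffold gephyrin, read 8.26, 8.20 and 7.99 with TIP-1 shRNA, against 7.93 and 7.94 with control shRNA. All 3 silenced arrays were above both controls, and the difference was 0.22 (SE 0.11). The neurexin-binding adaptor APBA2 differed by 0.41 (SE 0.25), with controls 0.87 apart. Of the proteases that shed these proteins, ADAM10, which cleaves NLGN3 in mouse brain, differed by -0.15 (SE 0.12) and MMP9, which cleaves NLGN1 in rodent neurons, by -0.13 (SE 0.10). Without shRNA 3 these were -0.25 and -0.08.

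**Figure D3:**
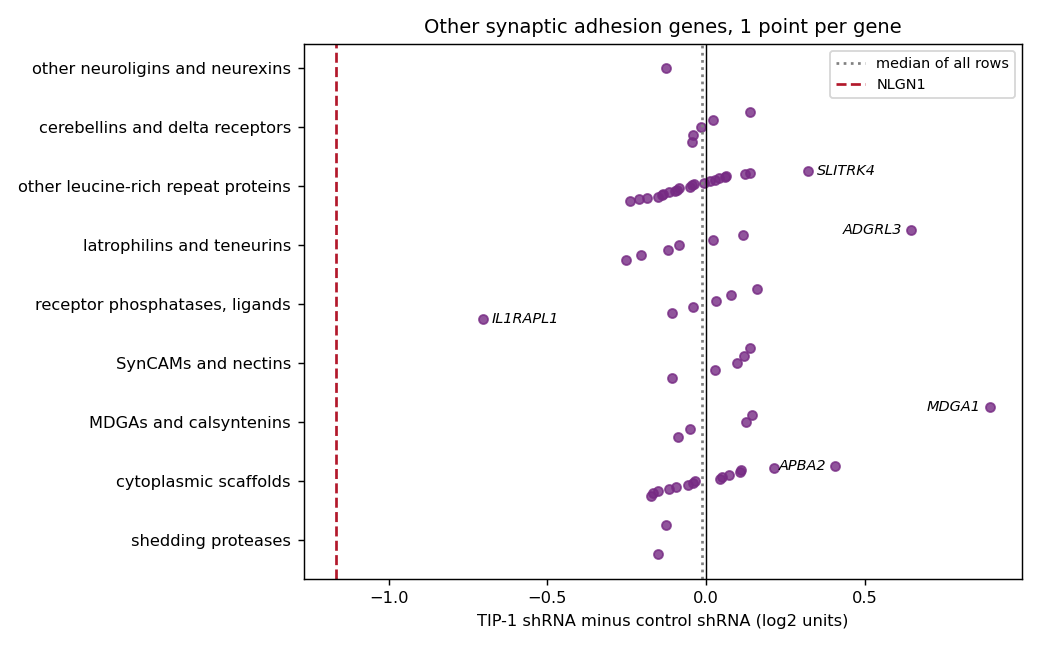
Log2 difference of TIP-1 shRNA from control shRNA for 68 other synaptic adhesion genes and partners, 1 point per gene, by functional group. The dashed line is NLGN1 (-1.17) and the dotted line the median of all rows (-0.01); no gene of the list lay as low as NLGN1, the nearest being IL1RAPL1 at -0.70.

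Marker lists were read beside these results, since most of the genes are better known in neurons. Of 8 neuronal markers, 0 passed limma over all rows; 3 had the silenced arrays below both controls and 1 above, where 14.5% and 11.6% of all rows did. At an unadjusted p under 0.05 there were 2 lower and 0 higher (3.95% and 3% of all rows). Their mean log2 signal was 7.53, 7.43 and 7.41 with TIP-1 shRNA, against 7.50 and 7.59 with control shRNA. The brightest were SYT1, RBFOX3 and GAD1. SYT1, the calcium sensor of vesicle release, read 8.67, 8.66 and 7.35 with TIP-1 shRNA, against 8.47 and 8.51 with control shRNA. Its difference of -0.26 turned to 0.18 without shRNA 3. The 3 markers below both controls were RBFOX3, SNAP25 and SYP, the last 2 named after their values were seen. RBFOX3, a splicing factor of neuronal nuclei, read 8.12, 8.05 and 8.09 with TIP-1 shRNA, against 8.15 and 8.62 with control shRNA. SNAP25, of the vesicle fusion machinery, read 7.38, 7.27 and 7.44 with TIP-1 shRNA, against 7.59 and 7.69 with control shRNA. The vesicle protein SYP read 7.23, 7.17 and 7.21 with TIP-1 shRNA, against 7.37 and 7.47 with control shRNA. These differences were -0.30, -0.28 and -0.22, smaller than that of NLGN1. Their shared direction follows from grouping the 3 by it. RBFOX3 had 3 rows, of which the brightest was read. Its controls were 0.46 apart, more than its difference, and its groups were only 0.03 apart. GAD1, the marker above both controls, read 8.08, 7.94 and 8.37 with TIP-1 shRNA, against 7.89 and 7.82 with control shRNA. Its difference was 0.27, and 0.16 without shRNA 3. By mean, 5 of the 8 neuronal markers were lower and 3 higher, where 53.7% of all rows were lower. Other lists leaned the same way: 5 of 7 astrocyte and glioma markers, 5 of 5 oligodendrocyte lineage, 3 of 4 microglial and 3 of 4 endothelial markers were lower. In that order, 1, 1, 1 and 2 lay below both controls in all silenced arrays, and 0, 0, 1 and 0 above both. At an unadjusted p under 0.05 (limma), 1 microglial marker was lower. Of the 7 astrocyte and glioma markers, VIM was bright (13.84 to 14.02 with TIP-1 shRNA, 13.95 and 14.02 with control shRNA), and GFAP read 8.14, 8.06 and 7.86 against 8.04 and 8.14. NES, the next brightest, differed by -0.13 with overlapping groups. Named after their values were seen, the dimmer AQP4 and SLC1A3 differed by -0.18 and -0.23, or -0.09 and -0.14 without shRNA 3. AQP4 overlapped its controls, while SLC1A3 was below both in all 3 silenced arrays. The median difference was -0.15 for neurons, -0.07 for astrocytes and glioma, -0.12 for the oligodendrocyte lineage, -0.22 for microglia and -0.07 for endothelium, and 0 markers passed. Without detection calls, none of these markers could be called present or absent, and their part in the NLGN1 result was not tested.

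The genes whose pattern over the 5 arrays was nearest to that of NLGN1 were found among the other 18416 genes, by the root mean square distance between log2 values set to each gene's own mean. They were VEPH1, which encodes a PH domain protein (distance 0.18), DIPK1A (0.20), the cystine and glutamate exchanger SLC7A11 (0.22), the nucleotide pyrophosphatase ENPP1 (0.25), the Toll-like receptor relative CD180 (0.26) and BCAT1, the cytosolic branched-chain aminotransferase (0.26). None is a synaptic adhesion gene. ENPP1 read 9.94, 10.04 and 9.64 with TIP-1 shRNA, against 10.67 and 10.71 with control shRNA. BCAT1 read 8.19, 8.28 and 8.17 with TIP-1 shRNA, against 8.84 and 9.03 with control shRNA. In both, the silenced arrays lay below the controls, with differences of -0.82 (SE 0.13) and -0.72 (SE 0.10). VEPH1, DIPK1A, SLC7A11 and CD180 differed by -1.19 (SE 0.10), -1.21 (SE 0.11), -1.11 (SE 0.27) and -1.20 (SE 0.23). SLC7A11 was uneven across shRNAs 1, 2 and 3, at 9.05, 9.39 and 8.44, against 9.91 and 10.23 with control shRNA. CD180 read 6.09, 5.69 and 5.84 with TIP-1 shRNA, against controls of 6.70 and 7.45 that were 0.75 apart. Since all 6 were picked for likeness to NLGN1, lying below the controls follows from the choice. Over 5 arrays such likeness is a description only.

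**Figure D4:**
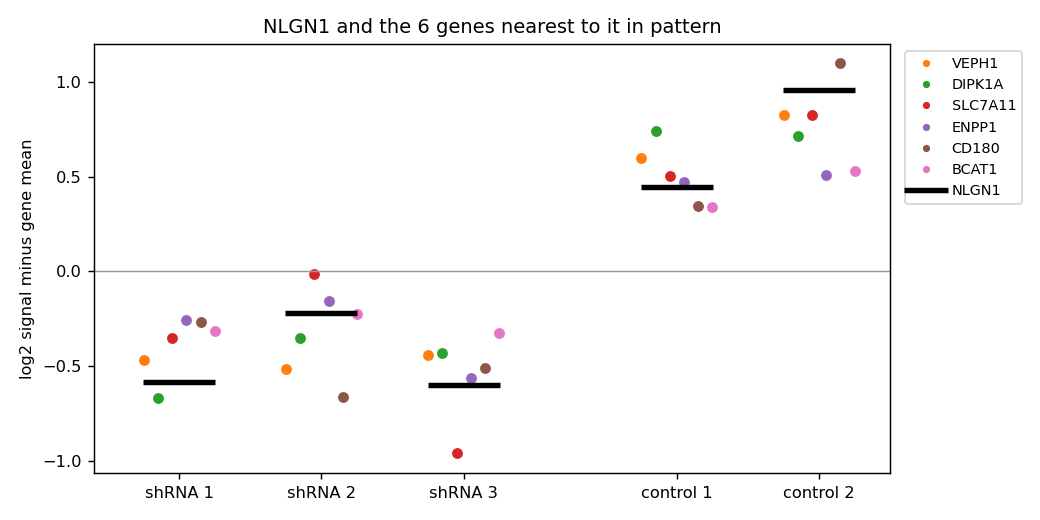
Log2 signal minus the gene's mean over the 5 arrays for NLGN1 (black bars) and the 6 genes nearest to it (points, set side by side within an array), TIP-1 shRNAs left and controls right. All 7 genes lay below their mean in the 3 silenced arrays and above it in both controls, at distances from NLGN1 of 0.18 to 0.26.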

How the data were processed

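Total RNA from 5 D54 cultures was measured on Affymetrix whole-transcript arrays. The deposited values are log2 signals. Per the series' design text, the authors used Affymetrix's exon array software; the version, background correction and normalization were not given in the sources used here. Row identifiers were those of the gene-level array's annotation, so each row was read as 1 transcript cluster. Values were used as deposited. Of 33297 rows, 19460 had 1 gene symbol, and the row with the highest mean stood for each of 18417 genes. Each difference subtracts control shRNA from TIP-1 shRNA and was fitted with limma 3.58.1 in R 4.3.3 (lmFit, eBayes, two-sided). P-values were adjusted over all rows by Benjamini-Hochberg, with 0.05 as the threshold. With 2 arrays against 3, an exact permutation test cannot go below 0.1, so none was used. The p-values set each difference against the spread between clones and shRNAs, which eBayes draws toward a value fitted over all rows. In simulated data with 200 changed rows among 33297, noise was drawn from the spread that limma fitted over all rows. The fit there recovered 2.2% of changes of 0.5 log2 units, 68.6% of 1 and 96% of 2, with 6.3 false calls per set. In the arrays themselves 1 row passed, although 25 had a difference of -1 or lower and 30 of 1 or higher. The recovered shares therefore do not carry over to these data.

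All 9 genes were named. From each group of the wider list the 2 genes with the smallest p were named, with the 6 genes nearest to NLGN1 and the brightest markers. Genes and lists were chosen with earlier results of these data known. Alternatives were quantile normalization, median centring, array weights, a trended robust fit, bright rows, single-symbol rows, a replicate block and leaving out each array. Gene overlaps and sequences came from RefSeq tables of GRCh38.p14; no build is stated for the arrays. The number of arrays limits the precision.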

Additional observations from a re-analysis of the deposited data

How the results depend on the processing

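NLGN1 stayed lower in all 9 alternatives run for it, from -1.42 to -0.91, with -1.10 under quantile normalization and median centring. Its distance from the median of the other 8 genes ranged from -1.26 to -0.80 when 1 array was left out, with -0.80 reached without control 2. Of 72 values for the other 8 genes, 71 moved by less than that gene's own SD between replicate arrays. The exception was LRRTM2 with median centring (-0.09). The measure is loose for a noisy gene: AMIGO2, with an SD of 0.72 across the TIP-1 shRNA arrays, ranged from 0.60 to 1.26. Signs changed for NLGN2 under 3 alternatives and for NRXN3 under 4. TAX1BP3 ranged from -2.495 to -2.37 when 1 array was left out and no longer passed without control 1, control 2 or shRNA 2. As deposited 1 row passed the threshold, but 2 with array weights, 0 with single-symbol rows only (the TAX1BP3 row has more symbols) and 0 to 6 with 1 array left out. With the replicate block it was 15. Deviations of same-numbered arrays correlated at r = 0.049 and -0.053, and the numbers were treated as names only. shRNA 3 has no partner there and drops out of the NLGN1 difference (-1.10). The mean of all rows per gene changes nothing for the 9 genes, which have 1 row each. With 1 control left out, the remaining one is taken to spread as the shRNA arrays do.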

Other observations

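Several synaptic adhesion genes separated shRNA 3 from shRNAs 1 and 2. These genes were chosen after their values were seen, each shRNA had 1 array, and no test was made. TENM2, a teneurin that binds latrophilins across the synapse, read 8.87, 8.75 and 11.18 with shRNAs 1, 2 and 3, against 9.50 and 10.12 in controls 1 and 2. Its group difference of -0.20 thus joins 2 arrays below both controls with 1 above them, and was -0.996 without shRNA 3. CADM4, an adhesion protein of the SynCAM family, read 9.64, 9.47 and 10.86 with TIP-1 shRNA, against 9.90 and 9.83 with control shRNA. Its difference was 0.12, and -0.31 without shRNA 3.

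The opposite order was seen for 3 genes. The latrophilin ADGRL3 read 6.80, 7.43 and 5.94 with TIP-1 shRNA, against 6.12 and 6.03 with control shRNA. SLITRK4, a leucine-rich repeat protein that binds receptor tyrosine phosphatases, read 8.06, 7.94 and 6.50 with TIP-1 shRNA, against 7.48 and 6.88 with control shRNA. Its difference was 0.32, and 0.82 without shRNA 3. AMIGO2 was 1.23 log2 units lower in shRNA 3 than the mean of shRNAs 1 and 2. Of the 77 genes of both lists, 2 were at least 1 log2 unit above that mean in shRNA 3 and 3 at least 1 below, where 0.670% and 0.321% of all 33297 rows were.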
